A study of Mus musculus with 17 samples.

Results

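The messages described here encode BH3-only proteins and the BCL2-type proteins they bind, which together set whether a cell dies through its mitochondria. The set holds 10 genes, taken by symbol from the 48440 gene rows of a table of liver RNA: Bcl2l11, Bmf, Bbc3, Hrk, Pmaip1, Bid, Bad and Bik of the BH3-only class, and Mcl1 and Bcl2 of the pro-survival class. Of 17 liver libraries, 6 came from miR-29 transgenic mice at 2 months of age. Another 5 came from wild types at 2 years and 6 from wild types at 2 months, both of the B6 inbred strain. The labels name the transgene only as miR-29; which family member it carries, what promoter drives it, how many founder lines were used and the strain background of the transgenic mice are not given there. The series asks, by its title, whether miR-29 drives features of aging, so each gene was compared between transgenic and young wild-type livers, between old and young wild-type livers, and between transgenic and old wild-type livers.

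BH3-only proteins are sensors of damage, lost growth factors or death-receptor signals. They occupy the groove of pro-survival proteins such as MCL1 and BCL2, and some of them also activate BAX and BAK directly, which then perforate the outer mitochondrial membrane and release cytochrome c to the apoptosome and its caspases. Hepatocytes depend on MCL1 for survival, and in mice they need BID to die after Fas is engaged. In mouse neurons miR-29 has been described as a brake on several BH3-only messages, and in human cholangiocytes on MCL1, so these genes combine known targets with partners that are not.

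The mature miR-29 strands are shown because their shared seed (bases 2 to 8, in capitals) is what pairs with a target message. They are RefSeq sequences on GRCm38.p6.
miR-29a-3p: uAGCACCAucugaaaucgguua
miR-29b-3p: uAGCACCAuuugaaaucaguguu
miR-29c-3p: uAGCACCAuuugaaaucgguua
Mir29a lies at chr6:31062673-31062694 on the minus strand and Mir29c at chr1:195037600-195037621 on the plus strand, and the same miR-29b strand is made from loci beside each of them, at chr6:31063025-31063047 (minus) and chr1:195037091-195037113 (plus). The 4 precursor rows, Mir29a, Mir29b-1, Mir29b-2 and Mir29c, were listed at 0 in all 17 libraries of polyadenylated RNA, so the table gives no check of the transgene itself.

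The letters TGGTGCT, which pair with that seed, were searched on the sense strand of the longest annotated 3′ UTR of each gene (GENCODE M21, GRCm38). They occurred in 5 of the 10 genes, against 13.2% of 20830 3′ UTRs of all genes, whose median length was 975 bases. Several of the 10 were listed because they are known miR-29 targets, so the higher share follows in part from that choice. The matches are printed with 15 bases before and 8 after, the match in capitals, since these are the places where the miRNA could pair.
Bcl2l11, chr2:128158398-128158427, plus strand: gtcatgtccctctctTGGTGCTgcgacagt
Bmf, chr2:118531349-118531378, minus strand: tgtaaggaaagacatTGGTGCTataatgaa
Bbc3, chr7:16317535-16317564, plus strand: ctcaggaaaggctgcTGGTGCTggctgccc
Bbc3, chr7:16317620-16317649, plus strand: ctggcctcaggccccTGGTGCTtccccccc
Hrk, chr5:118185064-118185093, plus strand: cctatatagtgtgtcTGGTGCTtcacttca
Hrk, chr5:118185087-118185116, plus strand: cacttcacagtttctTGGTGCTaagtgtat
Hrk, chr5:118185262-118185291, plus strand: tgtgggggggaggggTGGTGCTcacagggc
Mcl1, chr3:95661844-95661873, plus strand: ctagagtcttaaccaTGGTGCTattcactg
The Bcl2l11 match starts at base 84 after the stop codon, in a 4218-base 3′ UTR. The matches of Bmf and Mcl1 and the second of Hrk are followed by an A, a base that is common next to effective sites. No match was found in the 3′ UTRs of Bid (1427 bases), Bad (1026), Bik (409), Pmaip1 (2192) or Bcl2 (5086). A match of 7 letters is a description of the sequence and does not show that the site is used.

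Values are the authors' normalized counts, read counts divided by a size factor for each library, which summed to 28077001 to 44543936 per library; the sequencing depth is unknown. The 17 libraries fall into batch A (10 libraries, TruSeq polyA kit, sequenced at the University of North Carolina) and batch B (7 libraries, NEBNext Ultra II Directional kit, sequenced at Cornell University). All batch B libraries were male, and 1 of the 6 transgenic libraries, replicate 3 in batch A, was female. Hepatocyte messages were high throughout, with Alb between 992500 and 4469000, and none of 10 hepatocyte markers was called in any comparison. Each fold change comes from a limma fit with batch and sex as terms, over the 14588 genes with a mean of at least 10, and a gene is called at a Benjamini-Hochberg adjusted p under 0.05. The labels do not state that each library is a separate animal, so p-values measure the spread between these libraries. In whole liver, fewer cells of a type and less RNA per cell cannot be told apart.

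Bcl2l11 was the only one of the 9 genes tested that was called in any of the 3 comparisons: its message rose in transgenic liver. It encodes BIM, a BH3-only protein that binds every main pro-survival BCL2 protein and can activate BAX and BAK. The gene (ENSMUSG00000027381) spans chr2:128126038-128162547 on the plus strand. In batch A males Bcl2l11 had 269 and 394 normalized counts in transgenic livers, 240.3 in the 2-year wild-type liver, and 119 and 112 in 2-month wild-type livers. In batch A females it had 1341 in the transgenic liver, 157 and 239.8 in 2-year livers, and 169.5 and 190.5 in 2-month wild-type livers. In batch B males Bcl2l11 had 192, 193 and 101 in transgenic livers, 213 and 127 in 2-year livers, and 64.8 and 36.6 in 2-month wild-type livers. Within each batch and sex, every transgenic library lay above every 2-month wild-type library. Old and young wild-type livers were likewise apart in both sets of males, but in females their ranges overlapped. Each set of males holds 1 or 2 libraries per wild-type group. The share of all genes apart in males alone was not counted.

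**Figure D1:**
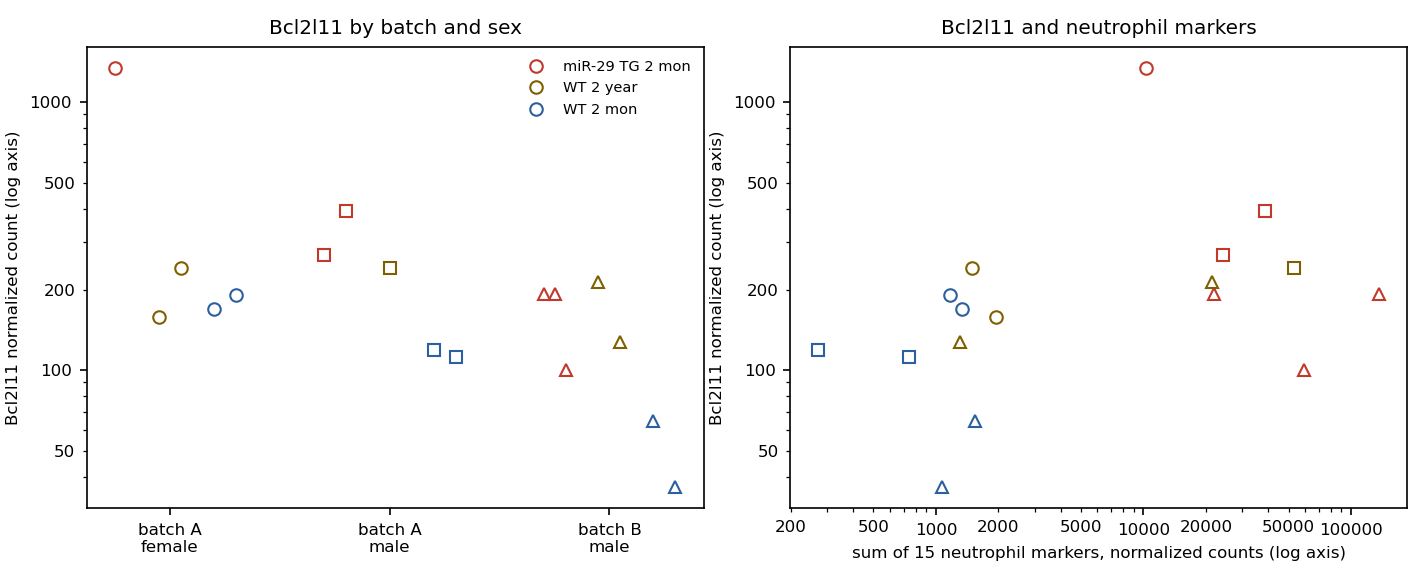
Bcl2l11 normalized counts (log axis) of each library, on the left by batch and sex, with transgenic, 2-year wild-type and 2-month wild-type livers from left to right, and on the right against the sum of 15 neutrophil markers (log axis). Every transgenic point lies above the 2-month wild-type points of its own batch and sex, and the neutrophil sums of transgenic livers, from 10310, lie above those of 2-month wild-type livers, up to 1542.

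The adjusted log2 fold change of Bcl2l11 for transgenic over 2-month wild-type liver was 1.75 ± 0.36 (SE; 95% interval 0.99 to 2.52; limma adjusted p = 0.00702). The ratio of means was 7.45 in batch A females, 2.86 in batch A males and 3.19 in batch B males. Of 14588 genes, 6.71% were called in this comparison with 2.89% called higher and 3.83% called lower. Groups that were apart within all 3 sets of batch and sex were found for 4.21% of genes in the higher and 5.54% in the lower direction, and of the 9 Bcl2l11 alone had such a pattern, in the higher direction. In the authors' deposited table the log2 fold change of Bcl2l11 was 1.94 ± 0.30 (SE) with an adjusted p of 8.76e-09.

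The call of Bcl2l11 held with each library left out in turn, with log2 fold changes of 1.34 to 1.93 and adjusted p-values of 0.00265 to 0.0265. The lowest of these fold changes came without the female transgenic library (1.34 ± 0.32, adjusted p = 0.0211). Among all libraries that one had the lowest normalized total, 28077001, and the lowest sum of hepatocyte markers, 2324000. In males alone the fold change was 1.56 ± 0.30 (adjusted p = 0.0108). It was 1.98 ± 0.42 in batch A (adjusted p = 0.0455) and 1.65 ± 0.47 in batch B, where it was not called (adjusted p = 0.119); without batch and sex as terms it was 1.49 ± 0.51 and also not called (adjusted p = 0.137). The transgene effect in males minus that in females was -1.97 ± 0.62 on the log2 scale (limma adjusted p = 0.112), and it rests on a single transgenic female.

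Between 2-year and 2-month wild-type livers Bcl2l11 differed by 0.93 ± 0.38 on the log2 scale (95% interval 0.14 to 1.73), which was not called (limma adjusted p = 0.535). Only 0.144% of all genes were called with age, 0.096% higher and 0.048% lower. The ratio of 2-year to 2-month means was 1.10 in batch A females, 2.08 in batch A males and 3.36 in batch B males. In males alone the age difference was 1.47 ± 0.35 (adjusted p = 0.0957). The age effect in males minus that in females was 1.87 ± 0.54 (limma adjusted p = 0.0997), which did not pass the threshold. Between transgenic and 2-year wild-type livers Bcl2l11 differed by 0.82 ± 0.38 (adjusted p = 0.315), a comparison in which 2.55% of genes were called, 0.713% higher and 1.84% lower; the ratio of means was 6.75 in batch A females, 1.38 in batch A males and 0.951 in batch B males.

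**Figure D2:**
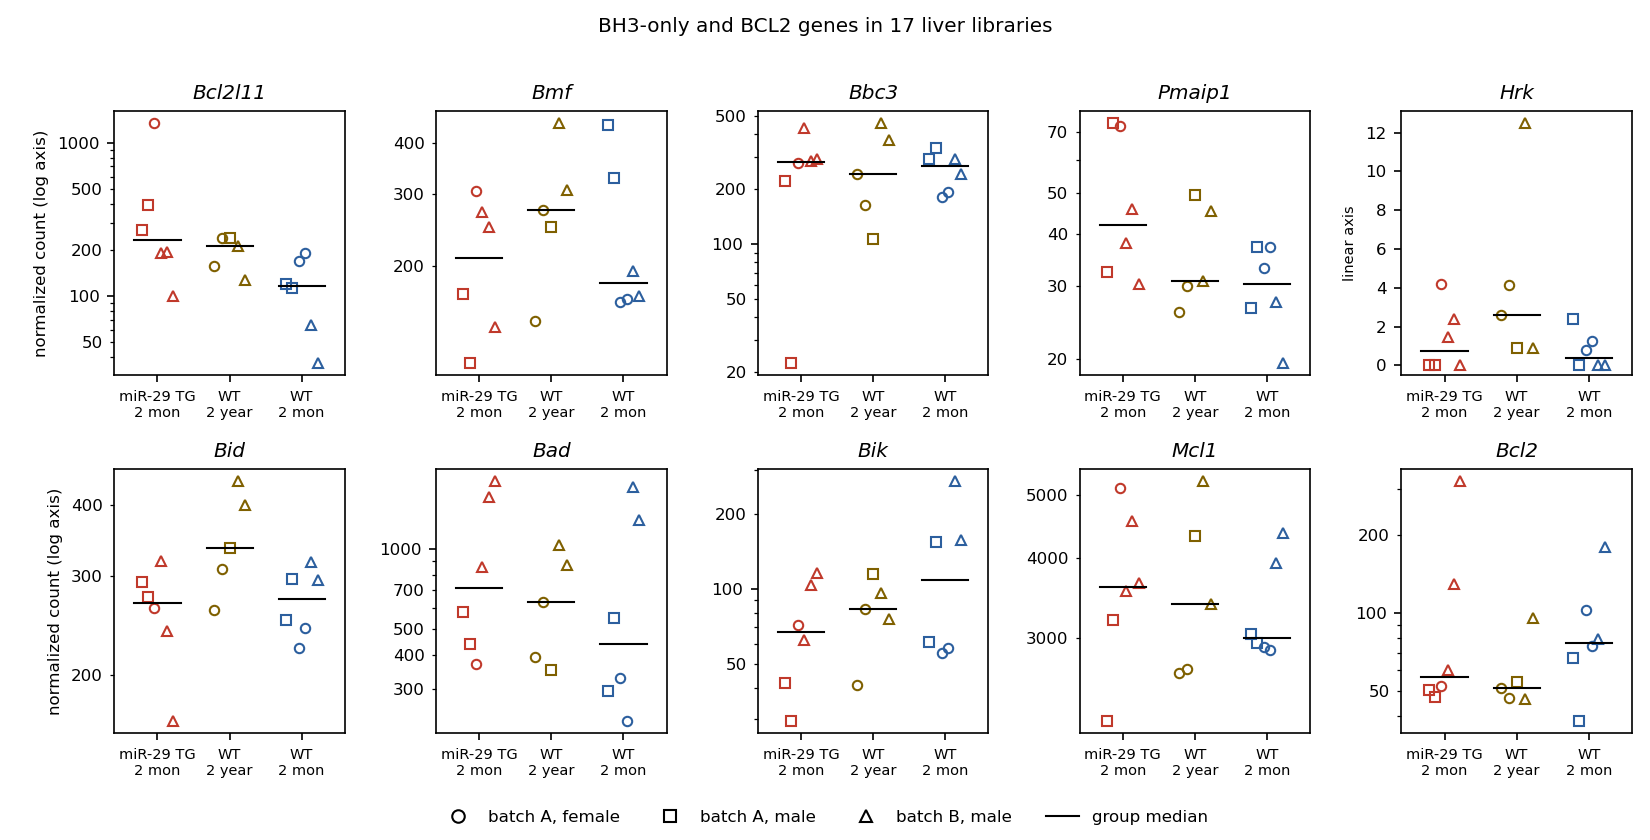
Normalized counts of the 10 genes in each library, on log axes except for Hrk, whose axis is linear; transgenic, 2-year wild-type and 2-month wild-type livers from left to right, symbols for batch and sex, lines for group medians. The groups of most genes overlap throughout. With batches and sexes together, 5 of 6 transgenic libraries of Bcl2l11 lie above the highest 2-month wild-type library, at 190.46. Transgenic replicates 4 and 5 do so narrowly, at 191.74 and 192.9.

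Bid and Bbc3 are the other BH3-only genes whose proteins are held to activate BAX and BAK directly, BID after cleavage by caspase-8 and PUMA, the product of Bbc3, after p53 induces it. Bid (ENSMUSG00000004446, chr6:120891930-120916853, minus strand) had a lowest, median and highest value of 166, 268.5 and 319 in transgenic livers. It had 260.5, 308, 335, 440.1 and 399.8 in the 5 old wild-type livers, and 224, 272 and 317 in young wild-type livers. Bid was the only one of the 9 genes whose old and young wild-type libraries did not overlap within any set of batch and sex, with ratios of 1.22 to 1.37; 2.52% of genes showed that pattern in the higher and 1.75% in the lower direction. None of the 9 genes showed it between transgenic and old livers, where 2.75% of genes did in the higher and 3.32% in the lower direction. Its log2 difference with age was 0.37 ± 0.20 (95% interval -0.05 to 0.78; limma adjusted p = 0.596). Transgenic livers differed by -0.49 ± 0.20 from old livers (adjusted p = 0.236) and by -0.13 ± 0.19 from young wild-type livers (adjusted p = 0.759). Of the exon bases of Bid, 17.7% are shared with Bcl2l13 on the opposite strand, whose mean was 1016. How reads of these shared bases were assigned is unknown, as the strand setting is not given.

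Bbc3 (ENSMUSG00000002083, chr7:16308393-16318205, plus strand) had 222, 22.4, 279, 431, 286 and 292 in transgenic replicates 1 to 6. The lowest, median and highest values were 107, 242 and 457 in old wild-type livers and 180.0, 267 and 333 in young wild-type livers. The transgenic libraries thus spread around the wild-type range with 1 far below it. The log2 difference of Bbc3 for transgenic over young wild-type liver was -0.49 ± 0.48 (95% interval -1.51 to 0.53; limma adjusted p = 0.618), and without transgenic replicate 2 it was 0.08. With age Bbc3 differed by -0.20 ± 0.50 (adjusted p = 0.907), and transgenic differed from old livers by -0.30 ± 0.51 (adjusted p = 0.841).

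Pmaip1 and Bik stood nearest to the threshold among the BH3-only genes that act by binding pro-survival proteins, in opposite directions. Pmaip1 encodes NOXA, a p53 target that binds MCL1 and promotes its turnover; its gene (ENSMUSG00000024521) spans chr18:66458533-66465565 on the plus strand. Pmaip1 had 32.3, 73.7, 72.4, 38.0, 45.8 and 30.3 in transgenic replicates 1 to 6, and 26.0, 29.97, 49.5, 30.9 and 45.3 in old wild-type livers. In young wild-type livers Pmaip1 ran from 19.6 to 37.2 with a median of 30.3. The transgenic range begins inside the young wild-type range and reaches above it. The log2 difference of Pmaip1 was 0.67 ± 0.30 (95% interval 0.03 to 1.30), with a limma p of 0.0406 before and 0.21 after adjustment. Its ratio of means was 2.06 in batch A females, 1.66 in batch A males and 1.62 in batch B males. Pmaip1 differed by 0.28 ± 0.31 with age (limma adjusted p = 0.774) and by 0.39 ± 0.32 between transgenic and old livers (adjusted p = 0.613).

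Bik (ENSMUSG00000016758, chr15:83526862-83544634, plus strand) encodes a BH3-only protein anchored in the endoplasmic reticulum. In batch A males Bik had 41.8 and 29.5 in transgenic livers, 115 in the old wild-type liver, and 61.2 and 155 in young wild-type livers. In batch B males it had 62.4, 103 and 116 in transgenic livers, 96.3 and 75.9 in old livers, and 270.3 and 158 in young wild-type livers. In batch A females the order was the other way, with 71.5 in the transgenic liver, 41.2 and 82.9 in old livers, and 55.0 and 57.8 in young wild-type livers. In these libraries Bik was lower in transgenic than in young wild-type males in both batches, and it was not called. How many of all genes are apart in this way in males was not counted, so the pattern cannot be set against a background. The log2 difference of Bik over all libraries was -0.88 ± 0.36 (95% interval -1.65 to -0.11), with a limma p of 0.0275 before and 0.168 after adjustment, and the authors' deposited table gave it -0.97 ± 0.37 with an adjusted p of 0.0599. Bik differed by -0.45 ± 0.38 with age (limma adjusted p = 0.701) and by -0.43 ± 0.39 between transgenic and old livers (adjusted p = 0.654).

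Bmf and Bad were not called in any comparison, and Hrk was too low to be tested. Bmf (ENSMUSG00000040093, chr2:118528757-118549687, minus strand) encodes a BH3-only protein that is held on the actin cytoskeleton and freed when cells detach. It ran from 115 to 305 in transgenic livers (median 209.5), from 147 to 448 in old wild-type livers (median 274) and from 163 to 444 in young wild-type livers (median 182). The log2 difference of Bmf was -0.25 ± 0.33 with the transgene (95% interval -0.95 to 0.45; limma adjusted p = 0.73) and 0.27 ± 0.35 with age (adjusted p = 0.799), and it was -0.52 ± 0.35 between transgenic and old livers (adjusted p = 0.525).

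Bad (ENSMUSG00000024959, chr19:6941861-6951899, plus strand) encodes a BH3-only protein that growth-factor kinases inactivate by phosphorylation. Its values were split by batch: they ran from 851 to 1784 in batch B and from 228 to 631 in batch A, with no overlap. No other gene of the 10 was split in this way. Outside the 10, Bax was split likewise, from 844 to 2673 in batch B and from 327 to 684 in batch A. The share of all genes split by batch was not counted. Of the exon bases of Bad, 20.5% are shared with Gpr137 on the opposite strand, whose mean was 516. The part of the kit or of this overlap in the split of Bad was not tested. Adjusted for batch, Bad differed by 0.23 ± 0.27 with the transgene (limma adjusted p = 0.694) and by 0.05 ± 0.28 with age (adjusted p = 0.963), and by 0.18 ± 0.29 between transgenic and old livers (adjusted p = 0.83).

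Hrk (ENSMUSG00000046607, chr5:118164648-118189478, plus strand), known as a BH3-only gene of neurons, was close to absent, with a mean of 1.97 over all libraries, under the limit for testing, and was listed at 0 in 6 libraries. It reached 4.17 in transgenic livers, 12.5 in old wild-type livers and 2.41 in young wild-type livers. Its 3 seed matches thus lie in a message near the limit of detection in these livers.

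The pro-survival genes showed no called change. Mcl1 (ENSMUSG00000038612, chr3:95658788-95663176, plus strand), whose protein guards hepatocytes against BIM, NOXA and BAK, had 2231, 3195, 5135, 3553, 4554 and 3656 in transgenic replicates 1 to 6. Old wild-type livers had 2649, 2689, 4314, 5255 and 3387, and young wild-type livers ran from 2878 to 4359 with a median of 2997. The transgenic libraries lie on both sides of the young wild-type range. The log2 difference of Mcl1 was 0.07 ± 0.21 with the transgene (95% interval -0.37 to 0.50; limma adjusted p = 0.896) and 0.07 ± 0.21 with age (adjusted p = 0.924); between transgenic and old livers it was 0.00 ± 0.22 (adjusted p = 0.997). The female transgenic library was 1.78 times the mean of young wild-type females, against 0.905 in batch A males and 0.947 in batch B males. The transgene effect on Mcl1 in males minus that in females was -1.09 ± 0.35 (limma adjusted p = 0.124).

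Bcl2 (ENSMUSG00000057329, chr1:106538178-106714274, minus strand), the founding pro-survival gene of the family, had 50.5, 47.4, 52.1, 60.3, 129 and 323 in transgenic replicates 1 to 6. It had 51.0, 46.7, 54.1, 46.3 and 95.3 in old wild-type livers and ran from 38.2 to 179.6 in young wild-type livers, with a median of 76.7. The 3 groups overlapped, and the transgenic group held both low and high values. The log2 difference of Bcl2 was -0.09 ± 0.38 with the transgene (95% interval -0.89 to 0.71; limma adjusted p = 0.926) and -0.61 ± 0.39 with age (95% interval -1.45 to 0.22; adjusted p = 0.64). Transgenic and old livers differed in Bcl2 by 0.53 ± 0.40 (adjusted p = 0.581).

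**Figure D3:**
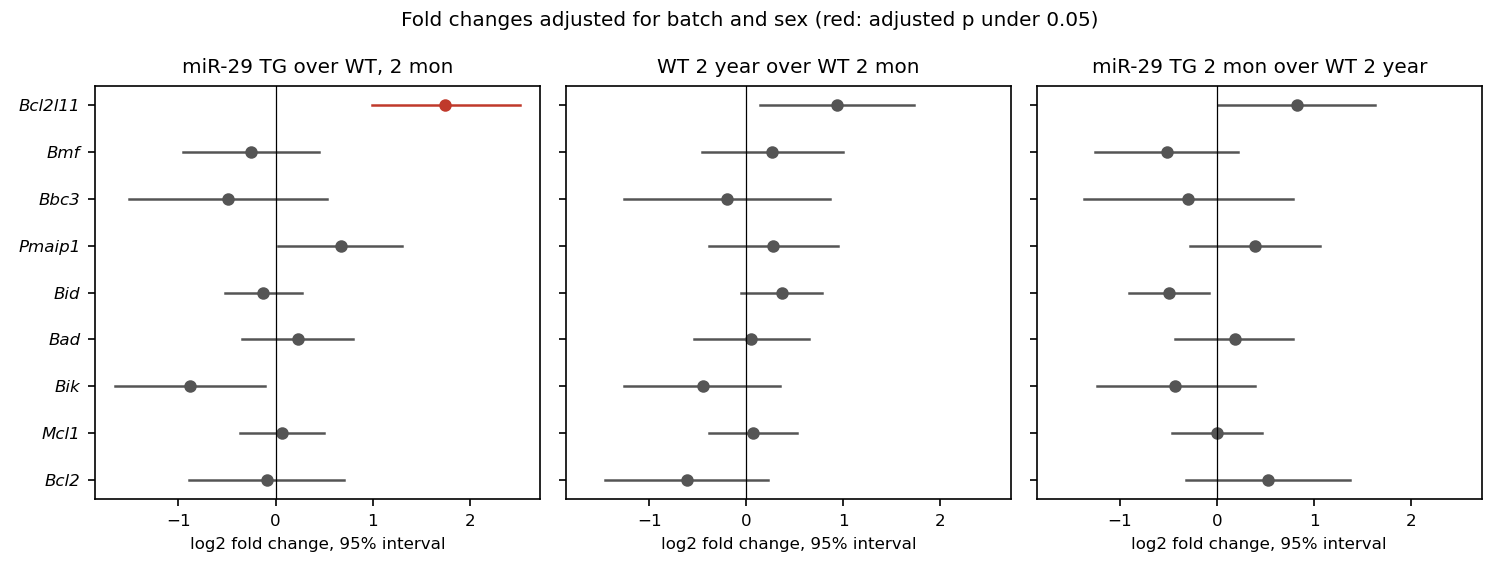
Adjusted log2 fold changes of the 9 tested genes with 95% intervals (limma), for transgenic over 2-month wild-type, 2-year over 2-month wild-type and transgenic over 2-year wild-type liver. Bcl2l11, at 1.75 for the transgene, is the only red (called) point, and most other intervals span 0.

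Over the 9 genes tested, the median log2 fold change for the transgene was -0.09, beside 0.01 over all genes, with 1 gene called higher, 0 lower and 3 with an unadjusted p under 0.05, which 21.2% of all genes had. For age the median was 0.07, beside 0.00 over all genes; 0 genes were called by limma, 0 in the authors' deposited table, and 1 had an unadjusted p under 0.05, as 8.73% of all genes did. For transgenic over old wild-type liver it was 0.00, beside 0.02, with 0 genes called by limma and 2 with an unadjusted p under 0.05, as 15.3% of all genes had. The age and transgene comparisons use the same young wild-type libraries, so their values are not independent.

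Ordered by median level, the genes stood in the same order in every group except that Bik and Bmf changed places in old wild-type livers. Per kilobase of annotated exon, Mcl1 had a median of 1055 normalized counts in transgenic, 991 in old wild-type and 877 in young wild-type livers. Bad followed with 279, 247 and 172, then Bbc3 with 133, 114 and 126, and Bid with 75.6, 94.5 and 76.8, in the same order of groups. Bik and Bmf came next with medians of 34.6 to 67.8, then Bcl2l11, Pmaip1, Bcl2 and Hrk. The ranges of neighbours in this order overlapped, apart from Hrk, which lay below Bcl2 in all 3 groups, Mcl1, which lay above Bad in old and young wild-type livers, and Bmf, which lay above Bcl2l11 in young wild-type livers. In transgenic livers the lowest Mcl1 value per kilobase was 653 and the highest of Bad was 697. The level of Bcl2l11 per kilobase was 1.17% to 11.1% of that of Mcl1 in transgenic livers (median 3.72%), 1.6% to 3.8% in old wild-type livers (median 2.37%) and 0.357% to 2.82% in young wild-type livers (median 1.64%). Exon lengths are those of all annotated transcripts joined, so the levels are approximate.

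**Figure D4:**
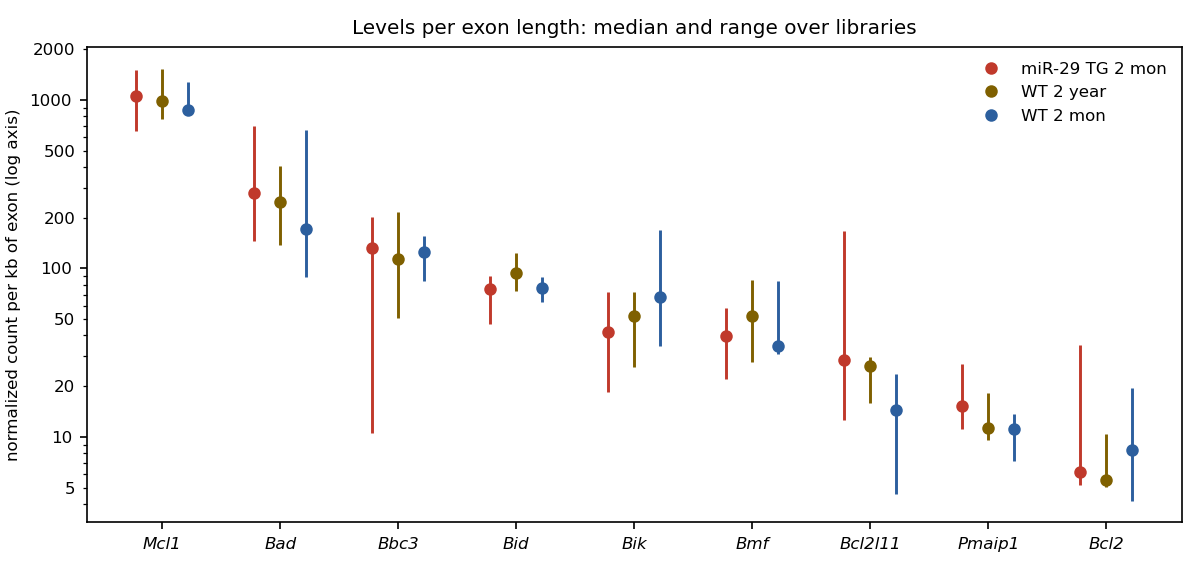
Median normalized counts per kilobase of exon (log axis) of 9 genes in each group, with lines for the range over libraries; Hrk, listed at 0 in 6 libraries, is not drawn. Mcl1 is highest in all 3 groups, with medians of 877 to 1055, and Bcl2 is lowest of those drawn.

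Of the 4 tested genes that carry one, Bcl2l11 rose in transgenic liver, and Bmf, Bbc3 and Mcl1 had log2 differences of -0.25, -0.49 and 0.07. Over all tested genes with a 3′ UTR, the 1987 with a match had a median log2 difference of 0.04 with the transgene, and 54 were called higher and 53 lower. The 10933 without a match had a median of 0.00, with 338 called higher and 444 lower. The share called was 5.39% with a match and 7.15% without. Among 33 tested genes of a reference list of miR-29 targets outside the BCL2 family, 1 was called higher and 3 lower, with a median of 0.03. Of all genes 2.89% were called higher and 3.83% lower. Col5a3, a collagen chain, had 197 ± 122 in transgenic and 794 ± 564 in young wild-type livers (SD, n = 6 each; log2 fold change -2.14 ± 0.42, limma adjusted p = 0.0045). Col1a1, the main fibrillar collagen chain, fell by 1.88 ± 0.46 (adjusted p = 0.02) and the growth factor gene Igf1 by 0.92 ± 0.21 (adjusted p = 0.016), while Ppargc1a, a coactivator of mitochondrial genes, rose by 1.48 ± 0.41 (adjusted p = 0.0394). Without the female transgenic library the adjusted p was 0.0749 for Col1a1, 0.0546 for Igf1 and 0.14 for Ppargc1a. In males alone the limma adjusted p was 0.121, 0.099 and 0.064 in the same order. With the replicate block it was 0.0738, 0.0677 and 0.0791. Col5a3 stayed called in males (adjusted p = 0.019) and with the block (adjusted p = 0.0116). Col1a1 was also not called without transgenic or young wild-type replicate 2 (adjusted p of 0.0553 and 0.0565), and Ppargc1a was not called in 9 of the 17 fits with 1 library left out: those without transgenic replicate 2, 3 or 5, young wild-type replicate 2, 3, 4, 5 or 6, or old replicate 5 (adjusted p of 0.0512 to 0.14).

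Other genes of the death pathway were read against the 6.71% of all genes called in transgenic liver. None of the 10 tested multidomain BCL2 family genes was called: the effector genes Bax and Bak1 differed by -0.40 ± 0.28 (limma adjusted p = 0.459) and -0.42 ± 0.25 (adjusted p = 0.369), and Bcl2l1, which encodes the pro-survival protein BCL-XL, by 0.10 ± 0.29 (adjusted p = 0.882). The smallest p among them was that of Bcl2l14 (-1.89 ± 0.61, adjusted p = 0.0752), at 3.39 ± 1.80 in transgenic and 16.7 ± 14.7 in young wild-type livers. None of 9 other BH3 or BNIP genes was called, the nearest being Bnip3l, a mitophagy receptor, with 0.67 ± 0.20 (adjusted p = 0.0584). None of 26 regulators of BH3 gene transcription or BH3 protein turnover was called; Akt1, a kinase that phosphorylates BAD and FOXO factors, had the smallest p, with 0.54 ± 0.20 (adjusted p = 0.118).

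Casp9, the initiator caspase of the apoptosome, had 309 ± 123 in transgenic and 480.5 ± 203 in young wild-type livers (SD, n = 6 each), a log2 difference of -0.56 ± 0.29 that was not called (limma adjusted p = 0.286).

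Of 15 death receptor genes Tnfaip3, which encodes the NF-kB inhibitor A20, was called: it rose by 2.87 ± 0.61 (limma adjusted p = 0.0085), with 3647 in the female transgenic library and a median of 252 in transgenic livers, against 22.7 to 124 in young wild-type livers. Without that female library the rise of Tnfaip3 was 2.01 (adjusted p = 0.013). Of 20 genes of p53 and its targets 2 were called. Btg2, an antiproliferative gene, rose by 2.69 ± 0.40 (adjusted p = 0.000575), with a lowest, median and highest value of 1588, 2110 and 14024 in transgenic livers, against 240.2, 683 and 909 in young wild-type livers. Perp, a p53 target of the cell membrane, fell by 1.0 ± 0.25 (adjusted p = 0.0235), and was not called without the female transgenic library (-0.69, adjusted p = 0.066), nor without transgenic replicate 2 or young wild-type replicate 2 or 5 (adjusted p of 0.0528 to 0.0637). Among all 17 libraries the female transgenic one holds the highest value of Bcl2l11, Tnfaip3 and Btg2, and the lowest of Bak1, at 97.8.

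**Figure D5:**
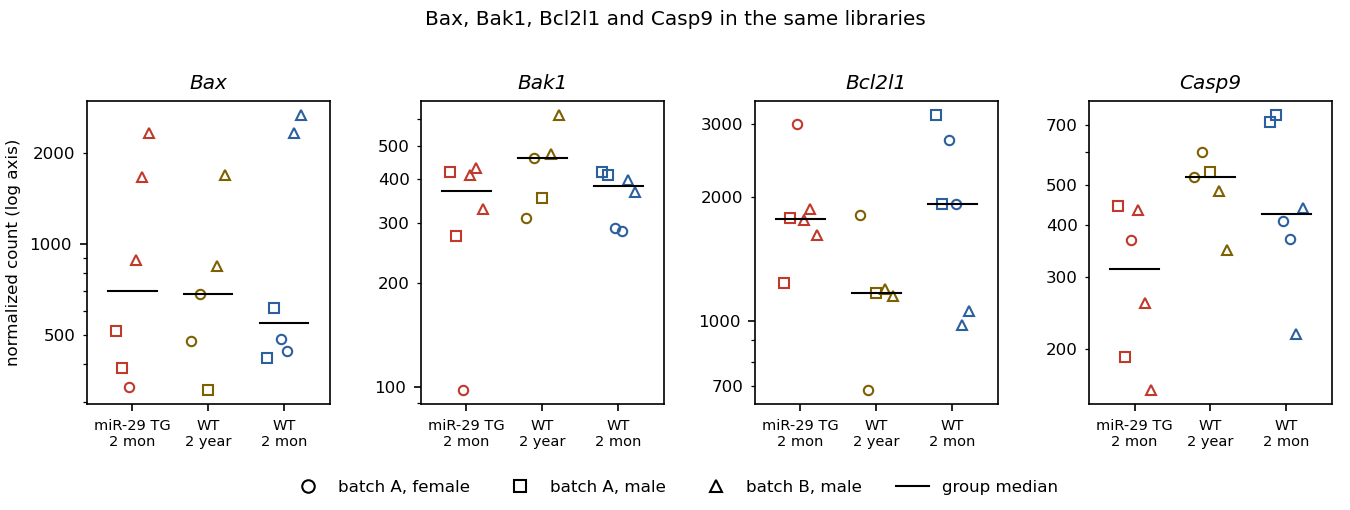
Normalized counts (log axis) of the effectors Bax and Bak1, of Bcl2l1 and of Casp9 in each library; transgenic, 2-year wild-type and 2-month wild-type livers from left to right, lines for group medians. The groups of all 4 genes overlap, and the female transgenic library has the lowest Bak1 value, 97.8.

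With age no gene of these 7 lists was called. Unadjusted limma p-values under 0.05, which 8.73% of all genes had, were found for 2 of 10 multidomain genes, 1 of 9 other BH3 or BNIP genes, 1 of 18 apoptosome and caspase genes, 3 of 15 death receptor genes, 2 of 20 p53 genes, 2 of 26 regulators and 7 of 33 reference miR-29 targets. Bcl2l1 had 1203 ± 399 in old and 1965 ± 874 in young wild-type livers (SD, n = 5 and n = 6), a log2 difference of -0.64 ± 0.30 (limma adjusted p = 0.571). Bax, Bak1 and Casp9 differed by -0.42 ± 0.29, 0.30 ± 0.26 and 0.20 ± 0.30 (limma adjusted p of 0.657 to 0.836). The smallest p of its list belonged to Bcl2a1d, a pro-survival gene with near-identical copies whose reads may be shared (1.30 ± 0.58), Bnip3l (0.56 ± 0.21), Birc6, an inhibitor of apoptosis (-0.73 ± 0.30), and Tnfsf10, which encodes the death ligand TRAIL (1.02 ± 0.34). In the remaining lists it belonged to Plk2 (0.79 ± 0.33), Akt1 (0.67 ± 0.21) and Col1a2, a fibrillar collagen chain (-1.12 ± 0.28, limma adjusted p = 0.156).

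Between transgenic and old wild-type livers 4 genes of these lists were called, read against 2.55% of all genes. They were 1 of 20 p53 genes, higher, and, of 33 reference miR-29 targets, 1 higher and 2 lower. In the other lists no gene was called. Btg2 rose by 1.86 ± 0.42 (limma adjusted p = 0.0239) and Ppargc1a by 2.09 ± 0.43 (adjusted p = 0.0161), while Col15a1, a basement membrane collagen, fell by 1.4 ± 0.31 (adjusted p = 0.0208) and Igf1 fell by 1.08 ± 0.23 (adjusted p = 0.0166). Each of these calls was lost with some libraries left out, at adjusted p-values of 0.0508 to 0.0677: Btg2 without old replicate 1 or 5, Ppargc1a without transgenic replicate 3 or old replicate 5, Col15a1 without transgenic replicate 3 or 5 or old replicate 1 or 2, and Igf1 without transgenic replicate 3 or old replicate 3. In males alone none of these 4 genes was called (limma adjusted p of 0.109 to 0.267). Casp8, the initiator caspase that cleaves BID, differed by -0.75 ± 0.21 (adjusted p = 0.0697) and Casp9 by -0.77 ± 0.31 (adjusted p = 0.237) over all libraries. Bak1 differed by -0.71 ± 0.26 (adjusted p = 0.19), Bax by 0.02 ± 0.30 (adjusted p = 0.985), Bcl2l1 by 0.74 ± 0.31 (adjusted p = 0.255) and Bcl2l14 by -1.90 ± 0.65 (adjusted p = 0.147). Tmbim6, a membrane protein that restrains BAX, differed by -0.60 ± 0.19 (adjusted p = 0.121) and Dynll1, a dynein light chain that binds BIM, by 0.96 ± 0.31 (adjusted p = 0.12).

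Several sets of markers of blood-derived cells also differed between the groups. Over all genes 2.89% were called higher and 3.83% lower with the transgene. Of 14 tested neutrophil markers 12 were called higher in transgenic than in young wild-type liver, and the sum over the 15 listed ran from 10310 to 136400 in transgenic livers, from 1301 to 52970 in old wild-type livers and from 271 to 1542 in young wild-type livers, where Ly6g was listed at 0 throughout. In transgenic replicates 1 to 6 the neutrophil sums were 24120, 38340, 10310, 21780, 136400 and 59080. Replicate 3, with the highest Bcl2l11 value (1340.6), had the lowest of these sums. Single markers of the list differed there. Csf3r was at 292.9, its highest value in the 17 libraries, S100a8 at 1863.4 and Elane at 0. Replicate 5, with the highest sum, had a Bcl2l11 value of 192.9. These 2 libraries differ in batch and sex, so their values cannot be compared directly. Young wild-type Bcl2l11 was 169.5 and 190.5 in batch A females, and 64.8 and 36.6 in batch B males. Monocyte and macrophage markers, of which 2 of 10 were called higher, summed to 23890 to 55350 in transgenic, 19990 to 50280 in old wild-type and 12110 to 32410 in young wild-type livers. Erythroid markers had 4 of 9 called higher and a median log2 fold change of 0.13 with the transgene. They summed to 23330 to 1593000, 14420 to 96650 and 16470 to 201900 in the same order of groups. For B and plasma cells 1 of 9 markers was called higher with the transgene, while the median log2 fold change of the 9 was -0.86. With age 1 was called higher, and the median was 0.62. Their sum ran from 310 to 2712 in transgenic, 2605 to 8781 in old wild-type and 596 to 2170 in young wild-type livers. None of 10 tested T and NK cell markers was called with the transgene, and their median log2 fold change was -0.19. The part of blood-derived cells in the values of Bcl2l11 was not tested.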

How the data were processed

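Polyadenylated liver RNA of 17 mouse libraries was sequenced on the NextSeq2000. The submitters' processing notes list the mm10 build and the tools STAR 2.5.3a, Salmon 0.6.0 and DESeq2. Which tool did what, which annotation release and which strand setting applied are not given in the sources used here. Expression was deposited by the authors as a normalized signal (DESeq2 normalized counts). The share of low values that were whole multiples of the most frequent lowest value, to a tolerance of 0.1, was 47.2% to 69.3% per library; whole reads were thus not recovered, and no count test was run. In their 2 deposited comparison tables the authors give, per the file headers, log2 fold changes and standard errors, the test's score, and raw and adjusted p-values, corrected for sex and batch as the tables' names say.

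Comparisons were fitted in R 4.3.3 with limma 3.58.1, its empirical Bayes step following the mean-variance trend, on log2(normalized value + 1), which understates changes of low genes. Terms were group, batch and sex, the 3 groups shared one spread, and all 14588 genes with a mean of at least 10 were adjusted together by Benjamini-Hochberg (two-sided). The fitting was tested on simulated data. Differences between sexes or batches were tested as interaction terms. Sums and tables used pandas 2.3.3 in Python 3.11.15. Alternatives were pseudocounts of 0.5 and 5, no filter and a filter of 50, rescaled libraries, other covariates, a replicate block, single batches, males only, 2 groups only, sample quality weights, leaving out each library, and the authors' tables.

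By rule, the 9 tested genes of the set are named in every comparison, with Casp9, Bax, Bak1 and Bcl2l1. From each pathway list the called genes were named, at most 6 by size, or else the gene with the smallest p; 1 gene that this rule named is not reported here. Hrk, below the filter, is given by its values. The genes and lists were chosen with earlier results of these data known.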

Additional observations from a re-analysis of the deposited data

Results flagged for a closer look

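In 4 of 30 sets of values (10 genes in 3 groups) a single library stood far from the rest of its group. The rule was applied to normalized counts rather than logs, with batches and sexes together. For normally spread values chance flags about 1 in 20 groups, a rate that need not hold here. Bcl2l11 had 1340.6 normalized counts in transgenic replicate 3, the only transgenic female, while the other 5 transgenic libraries lay between 101 and 394. Bcl2 had 322.89 in transgenic replicate 6, against 47.4 to 129 in the other 5. Bcl2 also had 95.281 in old wild-type replicate 5, against 46.3 to 54.1 in the other 4. Hrk had 12.482 in old wild-type replicate 4, against 0.875 to 4.16 in the other 4.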

How the results depend on the processing

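Bcl2l11 stayed called for the transgene in the alternatives other than the fits without covariates and within batch B, each of which called 0 of the 9 genes; with 1 library left out the number was 1 to 1. Genes called with the transgene (979) numbered 421 without covariates, 495 in batch A, 263 in batch B, 2211 in the authors' deposited table and 653 to 1311 with 1 library left out. Genes called with age (21) numbered 9 with a filter of 50, 9 with batch alone as covariate, 5 without covariates, 1 in batch A, 0 in batch B by limma (3764 at an unadjusted p under 0.05), 41 in males, 10 with 2 groups only, 60 with quality weights, 280 in the authors' deposited table and 9 to 37 with 1 library left out (9 without old replicate 2, 10 without old replicate 3, 12 without old replicate 4 or young replicate 1, 2 or 3, 13 without young replicate 5, 37 without transgenic replicate 3). Genes called between transgenic and old livers (372) numbered 139 without covariates, 175 in batch A, 45 in batch B, 175 in males, 120 with 2 groups only, 733 with quality weights and 161 to 525 with 1 library left out (161 without old replicate 5, 231 without old replicate 1, 244 without transgenic replicate 5). The cause was not tested.

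Replicate numbers were not taken as pairs in the main fit. Residual correlations of 16 same-number pairs ran from -0.316 to 0.384, 7 were over 0.1, and 6 of 17 libraries correlated best with their own number. No rate for pairs of unlike number was worked out, so these values cannot decide whether libraries were paired. With the replicate block 796 genes were called for the transgene, 11 for age and 247 between transgenic and old livers, and Bcl2l11 had 1.68 (adjusted p = 0.0102).

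Of 366 log2 fold changes of these genes under other settings, 25 changed sign, none called. For age these were Bmf with the replicate block (-0.02), Bmf (-0.17) and Bik (0.04) in batch A, Bbc3 (0.63) and Bad (-0.63) in batch B, Bad in males (-0.43) and Mcl1 with quality weights (-0.01). For the transgene they were Bcl2 without covariates (0.03), with the replicate block (0.11) and in males (0.11), Mcl1 in males (-0.11), Bid in batch A (0.10), and in batch B Bmf (0.23), Bbc3 (0.31), Bad (-0.14), Mcl1 (-0.09) and Bcl2 (0.19). Between transgenic and old livers they were Mcl1 without covariates (0.03), with 2 groups only (0.01), with quality weights (0.05) and in batch A (0.10), Bad in batch A (-0.04), Bcl2l11 (-0.09) and Bik (0.08) in batch B, and Pmaip1 in males (-0.01).

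With 1 library left out 20 of 459 changed sign: for age Bad (-0.16 to 0.19), Bbc3 (-0.37 to 0.00) and Mcl1 (-0.10 to 0.15), for the transgene Bbc3 (-0.74 to 0.08), Bcl2 (-0.37 to 0.09), Bid (-0.22 to 0.00) and Mcl1 (-0.16 to 0.19), and between transgenic and old livers Bbc3 (-0.56 to 0.19) and Mcl1 (-0.25 to 0.17). The unknown depth limits the lowest values, those of Hrk above all.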
